A study of Mus musculus with 6 samples.

Results

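The 10 genes described here encode the kinases, inhibitors and transcriptional regulators that govern entry into and passage through the cell cycle: Cdk1, Cdk2, Cdk4, Cdk6, Cdkn1b, Cdkn2c, Cdkn2d, Rb1, Rbl1 and E2f1. They were chosen by name, and all 10 were found among the 19233 genes of the deposited expression table. RNA was sequenced from polysomes, that is, from mRNA bound by more than 1 ribosome, of RAW264.7 cells, a male mouse macrophage line titled M2, the alternatively polarized state, to ask how the compound alters the translated mRNAs. In 3 libraries the cells had been given 500 nM of BMH-21, which blocks RNA polymerase I, from 24 h after polarization and for a further 24 h; in 3 libraries they had been given DMSO. The polarizing agent of the line itself is not stated, because the treatment text speaks of bone-marrow-derived macrophages, and the labels do not say whether replicates were separate cultures. RAW264.7 is a transformed line that divides in culture, which limits it as a model of tissue macrophages.

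Cyclin-dependent kinases (CDKs) are active only when bound to a cyclin. CDK4 and CDK6, with D-type cyclins, begin the phosphorylation of the retinoblastoma protein RB1 and its relative p107, which Rbl1 encodes. These pocket proteins bind E2F transcription factors and keep genes of DNA synthesis and mitosis silent until they are phosphorylated. CDK2 then acts with cyclins E and A during S phase, and CDK1 with cyclins A and B at mitosis. Inhibitors of the INK4 family, here p18 (Cdkn2c) and p19 (Cdkn2d), bind CDK4 and CDK6, whereas those of the CIP/KIP family, here p27 (Cdkn1b), bind cyclin-CDK complexes more widely.

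Levels are FPKM, which correct fragment numbers for the length of the transcript and the depth of the library, so they can be set side by side between genes. The low values implied 18770000 to 22560000 reads in the BMH-21 libraries and 21610000 to 24070000 in the DMSO libraries. Correlations of log2(FPKM + 1) were 0.997 to 0.998 within groups and 0.963 to 0.964 between them. Of 9 macrophage markers, 8 passed the filter on low values, and the summed markers reached 18243 to 19453 FPKM in BMH-21 libraries and 10519 to 10930 FPKM in DMSO libraries, most of it Lyz2. Of those 8, Lyz2, Cd14, Itgam and Cd68 were called higher with BMH-21 and Fcgr1, Adgre1, Ptprc and Csf1r lower (limma, adjusted p under 0.05), with log2 fold changes from −1.06 for Fcgr1 to 0.89 for Lyz2. The sign turned for Csf1r with median-ratio scaling (0.087) and upper-quartile scaling (0.043), and for Cd68 with quantile normalization (−0.040). Lyz2 did not differ between groups with quantile normalization. That method gives an equal value to any gene with the same rank in every library, so this does not show Lyz2 to be unchanged. Its log2 fold change was 0.76 with equal column totals and 1.17 with median-ratio scaling. All B cell, fibroblast and endothelial markers in the table stayed at or below 0.0608 FPKM. The T cell markers Cd3e, Cd3g and Cd8a were not among the symbols of the table. The 3 epithelial markers Epcam, Cdh1 and Krt18 set DMSO replicate 3 apart from the other DMSO libraries: they summed to 7.29 to 9.70 FPKM in the 3 BMH-21 libraries and 6.38 FPKM in DMSO replicate 3, while DMSO replicate 1 was at 0 for all 3 and DMSO replicate 2 had only 0.0644 FPKM of Krt18. Their sum was thus higher in every BMH-21 library than in any DMSO library, and Krt18, the one that passed the filter, was called higher with BMH-21 (log2 fold change 2.20, limma adjusted p = 0.0052). Their part in the results was not tested. Calls among the 10 genes that change without DMSO replicate 3 are given without it. For all tested genes, leaving it out gave 5511 called lower and 1816 higher, against 5690 and 1938 with it. For the further pathway genes described below, leaving it out gave 80 lower and 10 higher, against 81 and 9. Fewer cells of a type and less RNA per cell cannot be told apart in bulk samples, nor can more mRNA and a larger share of it on polysomes.

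With BMH-21, 9 of the 10 genes were called lower and 1, E2f1, higher (limma, adjusted p under 0.05). Among all 9748 tested genes 78.3% were called, 58.4% lower and 19.9% higher. The median log2 fold change of the 10 genes was −0.94, beside −0.23 for all tested genes. In 6 of them, Cdk1, Cdkn1b, Cdkn2c, Cdkn2d, Rb1 and Rbl1, the mean FPKM was called lower and at least 2-fold lower, which held for 10.7% of tested genes. The groups did not overlap in any of the 10, a separation that 79.8% of tested genes showed. Without DMSO replicate 3, 8 were called lower and 1 higher. Column scaling bears on the smaller changes, since median-ratio scaling alone moved the median of all genes by 0.23. Under that scaling 3546 genes were called lower and 3643 higher, against 5690 and 1938 as deposited, and 7 of the 10 genes were called lower and 2 higher. Relative to all genes, the median of the 10 was −0.71 as deposited and between −0.64 and −0.71 under 4 other scalings.

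**Figure D1:**
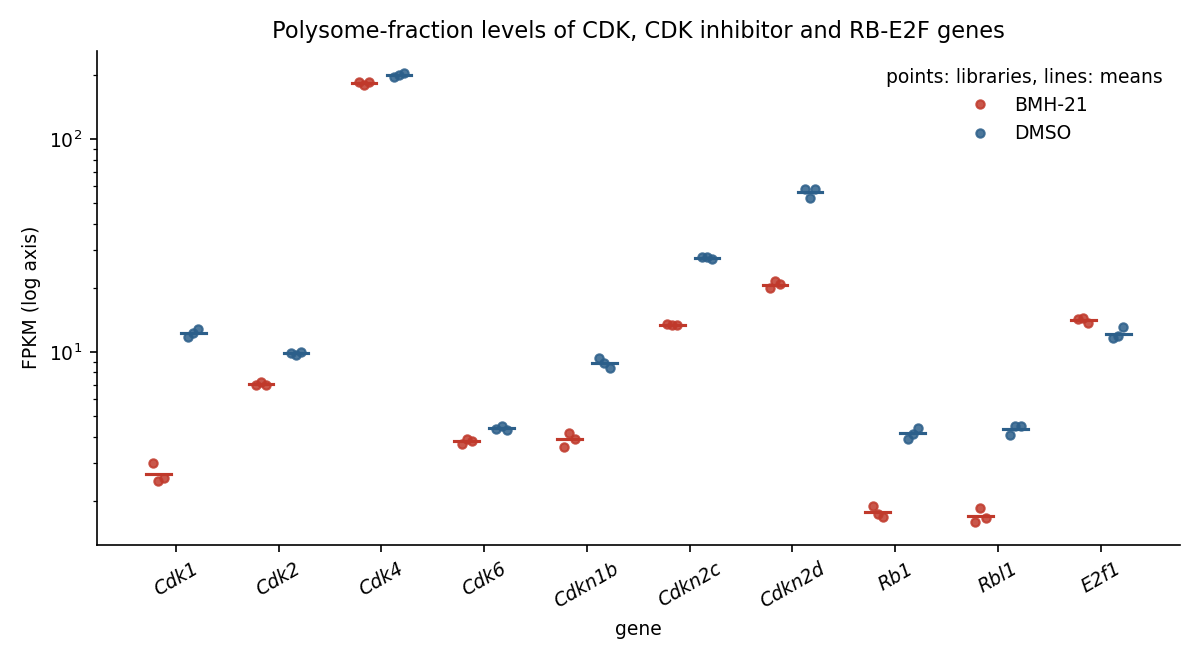
FPKM of each of the 10 genes on a log axis in 3 BMH-21 libraries (left of each pair) and 3 DMSO libraries (right), with lines at the means. Cdk4 lies far above the others in both groups, and E2f1 is the gene with every BMH-21 library above every DMSO library.

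Among the kinases, Cdk1 fell most. Its level was 3.00, 2.48 and 2.54 FPKM in the BMH-21 libraries, against 11.8, 12.3 and 12.8 FPKM in the DMSO libraries. The highest BMH-21 library was thus well under the lowest DMSO library. The means were 2.67 ± 0.28 FPKM in BMH-21 and 12.3 ± 0.54 FPKM in DMSO (SD, n = 3 each), so that DMSO was 4.60-fold higher. The log2 fold change was −1.86 ± 0.06 (SE, limma adjusted p = 5.19e-09), and 0.431% of tested genes had a lower one. The 3 tested genes whose profile over the 6 libraries lay nearest to that of Cdk1, by Euclidean distance of centred log2 values, were Phgdh at 0.12, Cth at 0.14 and Cdca8 at 0.14. Their log2 fold changes were −1.92, −1.89 and −1.94, since with tight groups this distance mainly matches the size of the group difference. Shared regulation was not tested. Phgdh begins serine synthesis, Cth makes cysteine and Cdca8 encodes borealin, a subunit of the chromosomal passenger complex.

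Cdk2 fell less. It was at 6.98, 7.20 and 6.96 FPKM with BMH-21 and at 9.85, 9.66 and 9.95 FPKM with DMSO. Each group was tight, with means of 7.04 ± 0.13 FPKM in BMH-21 and 9.82 ± 0.15 FPKM in DMSO (SD, n = 3 each). The log2 fold change was −0.43 ± 0.04 (SE, limma adjusted p = 7.22e-06), which is −0.20 relative to the median of all genes, and it was −0.16 with quantile normalization. The ratio of Cdk1 to Cdk2 within a library does not depend on a scaling factor. It was 0.378 in BMH-21 libraries and 1.25 in DMSO libraries (geometric means), a difference of −1.73 on the log2 scale, with no overlap between groups (exact two-sided permutation p = 0.10, 0.17 adjusted over 5 ratios). With 3 libraries against 3, 0.10 is the smallest p this test can give.

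Cdk4 was the most abundant of the 10 and changed little. It had 185, 179 and 185 FPKM in BMH-21 libraries, against 195, 199 and 204 FPKM in DMSO libraries. All BMH-21 values were under the DMSO values, by a margin that is small beside the level: the DMSO mean exceeded 97.1% of tested genes. The log2 difference of −0.12 ± 0.04 (SE, limma adjusted p = 0.013) turned to 0.16 with median-ratio and 0.11 with upper-quartile scaling, and without DMSO replicate 3 it was no longer called (−0.11, adjusted p = 0.061; range over all alternatives 0.00018 to 0.061). Of the exon bases of Cdk4, 19.7% are shared with Tspan31 on the opposite strand, which averaged 98.8 ± 2.3 FPKM in BMH-21 and 82.7 ± 4.5 FPKM in DMSO (SD, n = 3 each). The kit is not stated to mark the strand, so reads there cannot be assigned to one gene.

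Cdk6, the other partner of D-type cyclins, was far scarcer, at 3.70, 3.88 and 3.79 FPKM with BMH-21 and 4.35, 4.47 and 4.28 FPKM with DMSO. The groups lay close without overlap. Its log2 difference of −0.16 ± 0.05 (SE, limma adjusted p = 0.0092) became 0.061 after median-ratio scaling, 0.026 after upper-quartile scaling and 0.16 after quantile normalization. In linear terms Cdk4 was 48.3 times Cdk6 in BMH-21 and 45.5 times in DMSO (geometric means), and the per-library ratios overlapped between groups (exact two-sided permutation p = 0.20, 0.25 adjusted over 5 ratios). Of the summed FPKM of the 4 kinases, Cdk4 made up 93.1% ± 0.16 in BMH-21 and 88.3% ± 0.021 in DMSO, and Cdk1 made up 1.36% ± 0.13 in BMH-21 and 5.45% ± 0.12 in DMSO (SD, n = 3 each).

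Cdk1, Cdk2 and Cdk4 lie on chromosome 10, at 69335146 to 69352938, 128697939 to 128705031 and 127063534 to 127067920 in GENCODE M21 (GRCm38, the assembly of mm10). They differed in how far they fell. The 250 bases before the RefSeq start of each (GRCm38.p6) are shown, 5′ to 3′ on the gene's strand. A link between these letters and the falls was not tested. For Cdk1 (chr10:69352913-69353162, minus strand) and Cdk2 (chr10:128705052-128705301, minus strand), capitals mark E2F letters and, in Cdk1, the CHR letters of the cell cycle homology region that DREAM and MuvB complexes bind. For Cdk4 (chr10:127063285-127063534, plus strand), capitals mark E boxes, the letters that MYC with MAX can bind.
Cdk1: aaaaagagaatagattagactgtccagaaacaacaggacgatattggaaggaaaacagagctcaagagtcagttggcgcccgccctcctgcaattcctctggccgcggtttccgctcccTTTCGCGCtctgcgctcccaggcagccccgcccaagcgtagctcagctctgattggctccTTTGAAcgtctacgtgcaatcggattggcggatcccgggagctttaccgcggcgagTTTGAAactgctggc
Cdk2: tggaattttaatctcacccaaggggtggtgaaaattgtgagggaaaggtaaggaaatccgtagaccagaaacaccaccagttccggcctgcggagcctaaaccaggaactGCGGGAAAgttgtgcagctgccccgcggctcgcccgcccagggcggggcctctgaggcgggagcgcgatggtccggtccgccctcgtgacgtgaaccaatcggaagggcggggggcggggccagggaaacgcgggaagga
Cdk4: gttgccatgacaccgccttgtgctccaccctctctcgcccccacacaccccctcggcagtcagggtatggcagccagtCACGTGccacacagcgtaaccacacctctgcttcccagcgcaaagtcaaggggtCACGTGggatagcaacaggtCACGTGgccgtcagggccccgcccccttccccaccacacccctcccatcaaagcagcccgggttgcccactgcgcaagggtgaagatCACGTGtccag

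The E2F letters searched were TTTCCCGC, TTTCGCGC, TTTGCCGC and TTTGGCGC, on both strands, and 1.86% of all 32851 windows of this length held at least 1 of them. Of the 9 genes with a window in the table, 3 held 1 each: Cdk1, Cdk2 and Rbl1. The CHR letters TTTGAA occurred 2 times in Cdk1, at 66 to 71 and at 10 to 15 bases before the start, in no other of the 9 genes and in 16.0% of all windows. E boxes (CACGTG) occurred 4 times in Cdk4 and once in Cdk6, and in 6.02% of all windows. CCAAT letters, which the factor NF-Y binds, occurred in Cdk1, Cdk2, Cdkn1b and Cdkn2d and in 33.8% of all windows. The E box search was added after the sequences had been read. None of these matches overlap each other. A match describes letters only, and binding was not measured. For E2f1, Cdk6 and Cdkn2c the windows lie inside the gene as GENCODE M21 draws it, so they are not the bases before its outermost start. Of the 250 bases of a window, 198 lie inside the gene in Cdkn2d, 26 in Cdk1 and 1 in Cdk4. Rb1 was not matched.

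The 3 inhibitor genes among the 10 all fell, with DMSO means 2.07 to 2.73 times the BMH-21 means. Cdkn1b, on chromosome 6 (134920401 to 134925513), was at 3.56, 4.18 and 3.89 FPKM in BMH-21 libraries, against 9.39, 8.90 and 8.41 FPKM in DMSO libraries. No BMH-21 library came near the DMSO range. The means were 3.87 ± 0.31 FPKM in BMH-21 and 8.90 ± 0.49 FPKM in DMSO (SD, n = 3 each), and the log2 difference was −1.02 ± 0.06 (SE, limma adjusted p = 1.81e-07). Relative to Cdk2, one of the kinases that p27 inhibits, Cdkn1b stood at 0.549 in BMH-21 and 0.905 in DMSO (geometric means of the FPKM ratio), a log2 difference of −0.72 with no overlap (exact two-sided permutation p = 0.10, 0.17 adjusted over 5 ratios).

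Cdkn2c, on chromosome 4 (109660876 to 109667189), had 13.5, 13.3 and 13.4 FPKM with BMH-21 and 27.9, 27.8 and 27.3 FPKM with DMSO. The replicates of each group nearly coincide, and the DMSO mean was 2.07-fold higher. Its log2 fold change was −0.995 ± 0.04 (SE, limma adjusted p = 9.70e-09). Cdkn2d, on chromosome 9 (21288410 to 21291407), had 19.9, 21.4 and 20.8 FPKM with BMH-21, against 58.2, 52.9 and 58.3 FPKM with DMSO. It was the second most abundant of the 10 genes in both groups and, after Cdk1, fell most, at −1.40 ± 0.05 (SE, limma adjusted p = 6.38e-09). The ratio of Cdkn2c to Cdkn2d was 0.647 in BMH-21 and 0.491 in DMSO (geometric means), a log2 difference of 0.40 without overlap (exact two-sided permutation p = 0.10, 0.17 adjusted over 5 ratios).

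Cdkn1a, which encodes p21, the p53-responsive CIP/KIP inhibitor, is not among the 10 but is the most abundant CDK inhibitor gene in the table. It had 246, 253 and 251 FPKM in BMH-21, against 124, 116 and 118 FPKM in DMSO, for a log2 difference of 1.06 ± 0.04 (SE, limma adjusted p = 7.77e-09). Summed over Cdkn1a, Cdkn1b, Cdkn2c and Cdkn2d, inhibitor levels were 288 ± 4.1 FPKM in BMH-21 and 212 ± 6.8 FPKM in DMSO (SD, n = 3 each). Without Cdkn1a the sum of the other 3 was 38.0 ± 0.99 FPKM in BMH-21 and 93.1 ± 3.1 FPKM in DMSO. The share of Cdkn1a in the sum of 4 was 86.8% ± 0.16 in BMH-21 and 56.2% ± 0.40 in DMSO.

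**Figure D2:**
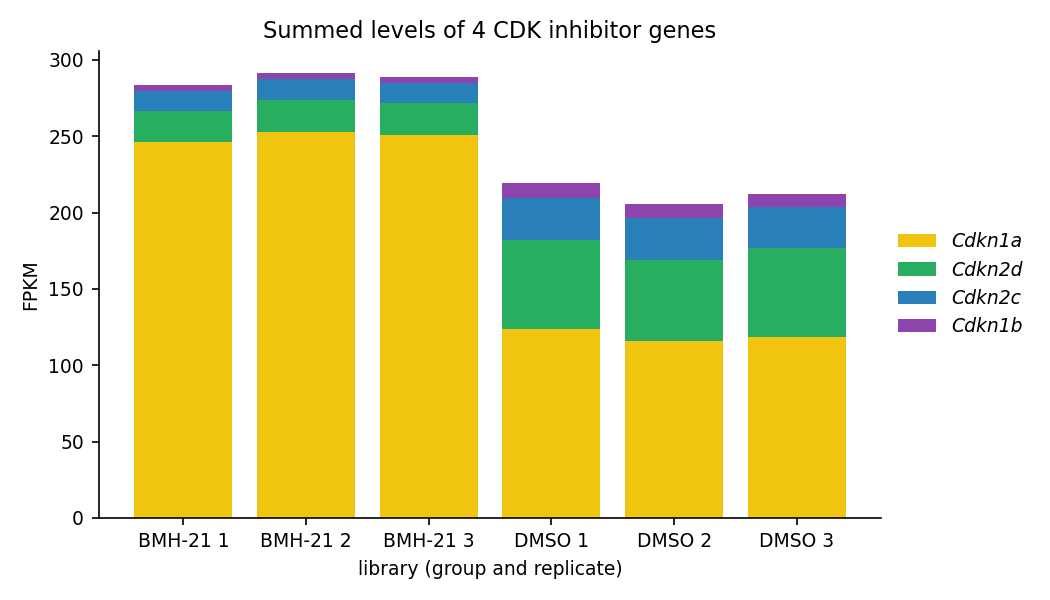
Summed FPKM of 4 CDK inhibitor genes in each library, BMH-21 libraries left and DMSO libraries right, with 1 colour per gene. The Cdkn1a segment is 246 to 253 FPKM high in BMH-21 libraries and 116 to 124 FPKM in DMSO libraries, and the other 3 segments together average 38.0 FPKM in BMH-21 and 93.1 FPKM in DMSO.

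Both pocket protein genes among the 10 fell. Rb1, on chromosome 14 (73183673 to 73325822), was at 1.89, 1.74 and 1.68 FPKM with BMH-21 and at 3.91, 4.12 and 4.39 FPKM with DMSO. Every BMH-21 library was under every DMSO library, and the log2 fold change was −0.89 ± 0.06 (SE, limma adjusted p = 3.29e-07), or −0.59 with quantile normalization. Small parts of its exons lie opposite Rcbtb2 (8.11% of exon bases) and Lpar6 (6.78%), which averaged 3.34 ± 0.12 and 0.807 ± 0.11 FPKM in BMH-21 and 3.08 ± 0.11 and 0.776 ± 0.040 FPKM in DMSO (SD, n = 3 each). Rbl1, on chromosome 2 (157145893 to 157204534), had 1.58, 1.86 and 1.66 FPKM with BMH-21, against 4.06, 4.47 and 4.50 FPKM with DMSO. The groups were again apart, and the log2 difference was −0.99 ± 0.06 (SE, limma adjusted p = 2.32e-07). The 2 genes held nearly equal levels in both groups, with an Rb1 to Rbl1 ratio of 1.04 in BMH-21 and 0.954 in DMSO (geometric means) that overlapped between groups (exact two-sided permutation p = 0.30, also 0.30 adjusted over 5 ratios).

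The third pocket protein gene, Rbl2, which encodes p130, fell by 0.47 on the log2 scale to 4.03 ± 0.34 FPKM in BMH-21, against 5.94 ± 0.067 FPKM in DMSO (SD, n = 3 each). That log2 difference was −0.14 with quantile normalization. Its share of the summed pocket protein FPKM was 53.7% ± 2.4 in BMH-21 and 41.2% ± 1.5 in DMSO. The window before the start of Rbl1 (chr2:157204535-157204784, minus strand, GRCm38.p6) is shown because its E2F letters, in capitals, lie 11 to 18 bases before the start. It held neither CHR letters nor an E box.
Rbl1: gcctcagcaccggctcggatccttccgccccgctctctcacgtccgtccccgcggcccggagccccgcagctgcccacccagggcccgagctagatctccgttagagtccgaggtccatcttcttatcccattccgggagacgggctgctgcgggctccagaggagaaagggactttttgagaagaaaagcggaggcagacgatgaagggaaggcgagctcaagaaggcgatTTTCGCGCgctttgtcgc

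E2f1, the transcription factor that RB1 restrains, went the other way. It had 14.3, 14.4 and 13.7 FPKM in BMH-21 libraries, against 11.6, 11.9 and 13.0 FPKM in DMSO libraries. The lowest BMH-21 library and the highest DMSO library, replicate 3, lay close together. The log2 fold change was 0.20 ± 0.05 (SE, limma adjusted p = 0.0045) and 0.25 without DMSO replicate 3. It was 0.42 to 0.46 with median-ratio, upper-quartile and quantile scaling, but with equal column totals it was 0.09 and was not called (adjusted p = 0.16; range over all alternatives 2.77e-05 to 0.16). The nearest profiles to E2f1 were those of BC029722, Pno1 and Tmem8, at Euclidean distances of 0.05, 0.06 and 0.06 over 6 libraries. Their log2 fold changes, 0.19, 0.19 and 0.21, were likewise close to that of E2f1, and shared regulation was not tested. Pno1 encodes an assembly factor of the small ribosomal subunit.

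**Figure D3:**
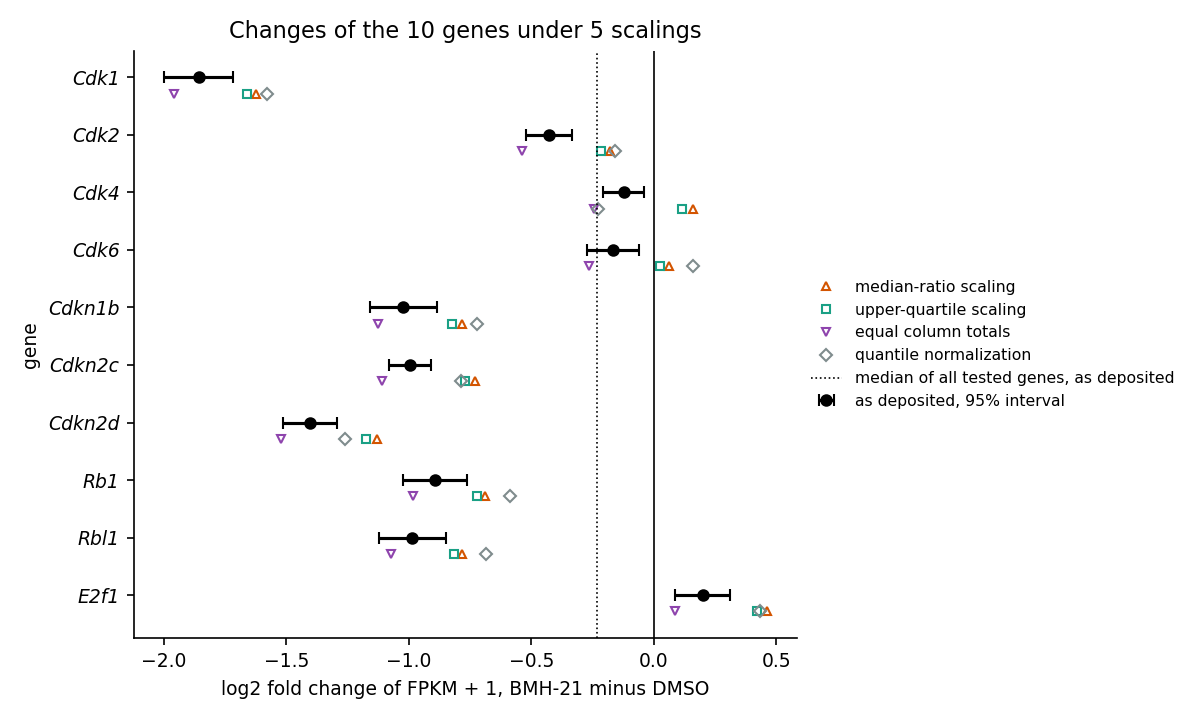
Log2 fold change of FPKM + 1, BMH-21 minus DMSO, for each of the 10 genes as deposited (filled circles, 95% interval) and under 4 other scalings (open symbols), with the median of all tested genes dotted. Cdk4 and Cdk6 lie on both sides of 0, at −0.24 to 0.16 and −0.26 to 0.16, while the 3 inhibitors, Rb1, Rbl1, Cdk1 and Cdk2 stay below 0 under all 5.

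In order of level, BMH-21 libraries ran Cdk4, Cdkn2d, E2f1, Cdkn2c, Cdk2, Cdkn1b, Cdk6, Cdk1, Rb1 and Rbl1. The DMSO libraries ran Cdk4, Cdkn2d, Cdkn2c, Cdk1, E2f1, Cdk2, Cdkn1b, Cdk6, Rbl1 and Rb1. Neighbours whose library ranges overlapped were Cdkn1b with Cdk6 and Rb1 with Rbl1 in BMH-21, and Cdk1 with E2f1, Cdk6 with Rbl1 and Rbl1 with Rb1 in DMSO. Cdk1 stood at rank 8 in BMH-21 and rank 4 in DMSO, and in BMH-21 it was below E2f1, Cdk2, Cdkn1b and Cdk6.

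**Figure D4:**
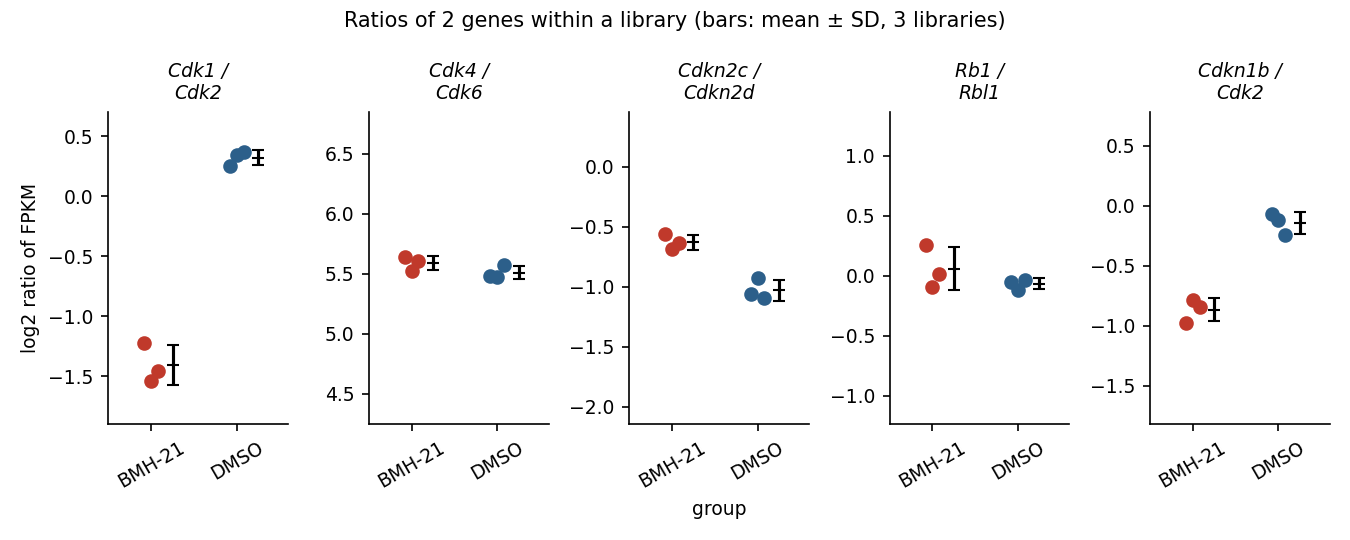
Log2 ratio of the FPKM of 2 genes within each of 3 BMH-21 (left) and 3 DMSO libraries (right), with bars at the mean ± SD. The difference between groups is −1.73 for Cdk1 over Cdk2, 0.40 for Cdkn2c over Cdkn2d and −0.72 for Cdkn1b over Cdk2, while the groups overlap for Cdk4 over Cdk6 and Rb1 over Rbl1.

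The rest of the pathway was followed through 112 further genes in 8 lists by role, of which 108 were in the table and 102 were tested. Of these 81 fell, 9 rose and 12 did not pass (limma, adjusted p under 0.05), beside the 58.4% lower and 19.9% higher among all tested genes. The 2 lists of E2F and DREAM targets supplied 45 of those that fell. Among the 57 tested genes of the other 6 lists, 36 fell (63.2%) and 9 rose (15.8%), shares near those of all tested genes. The lists were drawn up with earlier results of these data known.

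Cyclins, the partners without which CDKs are inactive, mostly fell. Of 7 tested, 6 fell (85.7%, beside 58.4% of all tested genes) and 1 rose. The falls were led by Ccnb2 at −3.07, Ccnb1 at −2.27 and Ccna2 at −2.38 on the log2 scale. The one that rose, outside the rule for named genes, was the D-type cyclin Ccnd1, at 54.9 ± 1.1 FPKM in BMH-21 and 41.2 ± 0.76 FPKM in DMSO (SD, n = 3 each; log2 fold change 0.41, and 0.29 to 0.68 under the other 4 scalings). Its relative Ccnd3 had 7.01 ± 0.14 FPKM in BMH-21 and 12.1 ± 0.46 FPKM in DMSO.

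All 9 listed genes that switch or assist CDKs fell, beside 58.4% of all tested genes, with a median log2 fold change of −0.98. The list holds inhibitors of CDK1 as well as activators. The inhibitory kinase genes Pkmyt1 and Wee1, outside the rule for named genes, changed by −1.20 and −0.40. With quantile normalization Wee1 changed by −0.07. Cdc25b and Cdc25c encode phosphatases that remove inhibitory phosphates from CDK1. Cdc25b had 9.10 ± 0.27 FPKM in BMH-21 and 28.2 ± 0.78 FPKM in DMSO, and Cdc25c had 0.333 ± 0.074 FPKM in BMH-21 and 2.28 ± 0.070 FPKM in DMSO. Mnat1, a subunit of the CDK-activating kinase, had 2.66 ± 0.12 FPKM in BMH-21 and 6.24 ± 0.24 FPKM in DMSO (SD, n = 3 each). The count was 8 with median-ratio or upper-quartile scaling and 7 with quantile normalization.

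Other CDKs, many of which act in transcription rather than the cell cycle, did not move one way. Of 14 tested, 5 rose and 5 fell as deposited (35.7% each, beside 19.9% and 58.4% of all tested genes). With median-ratio scaling 9 rose and 3 fell. The median log2 fold change of the list was 0.05 as deposited. That median was −0.04 with equal column totals and 0.23 to 0.30 with the other 3 scalings. Cdk14 rose to 8.39 ± 0.34 FPKM in BMH-21, against 4.94 ± 0.19 FPKM in DMSO, and Cdk18 to 60.3 ± 2.4 FPKM in BMH-21, against 41.5 ± 1.5 FPKM in DMSO. Cdk11b, which acts in transcription and splicing, fell to 13.8 ± 0.29 FPKM in BMH-21, against 22.7 ± 0.42 FPKM in DMSO (SD, n = 3 each). Of the remaining CDK inhibitor genes listed, Cdkn3, which encodes a phosphatase of CDK2, fell to 1.82 ± 0.20 FPKM in BMH-21, against 9.51 ± 0.80 FPKM in DMSO. Cdkn1c, Cdkn2a and Cdkn2b were listed but were not among the symbols of the table, so they have no values here.

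Genes for turnover of the inhibitors and their FOXO regulators were mixed, with 2 higher (20.0%), 5 lower (50.0%) and 3 not called of 10. These shares are near the 19.9% higher and 58.4% lower of all tested genes. The median of the list was −0.21 on the log2 scale, close to the −0.23 of all tested genes. With median-ratio scaling the median was 0.0038 and with upper-quartile scaling −0.031. Uhmk1, whose kinase phosphorylates p27, had 23.8 ± 0.95 FPKM in BMH-21 and 14.9 ± 0.54 FPKM in DMSO. Cul1, the scaffold of the ubiquitin ligase that degrades p27, had 6.04 ± 0.46 FPKM in BMH-21 and 12.3 ± 0.62 FPKM in DMSO, and Ubac1, part of another p27 ligase, had 14.9 ± 0.87 FPKM in BMH-21 and 22.9 ± 0.84 FPKM in DMSO (SD, n = 3 each). With equal column totals the list had 1 higher and 8 lower genes, and with median-ratio scaling 4 and 4.

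Among 15 tested genes for other pocket proteins, E2F factors and DREAM subunits, 10 fell, none rose and 5 did not pass. The share that fell, 66.7%, was near the 58.4% of all tested genes. With median-ratio scaling 9 fell and 5 rose. E2f2, an activator related to E2f1, had 1.74 ± 0.19 FPKM in BMH-21 and 6.38 ± 0.11 FPKM in DMSO. E2f8, an atypical E2F that represses, had 1.71 ± 0.052 FPKM in BMH-21 and 5.36 ± 0.36 FPKM in DMSO. Mybl2, which joins MuvB to activate late cell cycle genes, had 3.69 ± 0.18 FPKM in BMH-21 and 10.8 ± 0.16 FPKM in DMSO (SD, n = 3 each). Of the E2F genes, those that did not pass were E2f3, E2f4, E2f5 and E2f6, with log2 fold changes between −0.11 and 0.09. E2f1 was thus the one E2F gene called higher as deposited, and the difference between E2f1 and its relatives was not tested. With median-ratio scaling the log2 fold change was 0.46 for E2f1, 0.34 for E2f3, 0.28 for E2f4, 0.32 for E2f5 and 0.14 for E2f6. Under that scaling E2f2 and E2f8 stayed lower, at −1.22 and −1.02.

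The tested genes of the 2 lists of E2F and DREAM targets fell without exception, and under all 5 scalings. Among all tested genes 58.4% were called lower as deposited. The fall in the lists held for 23 of 23 tested E2F targets of G1 and S phase, with a median log2 fold change of −1.07. It also held for 22 of 22 tested DREAM targets of G2 and M phase, at −1.33. Rrm2, a subunit of ribonucleotide reductase, changed by −1.90, thymidine kinase Tk1 by −1.88 and the helicase subunit Mcm5 by −1.65 on the log2 scale. In the later list the anaphase activator Cdc20 changed by −2.35, while the kinase gene Aurka had 7.09 ± 0.35 FPKM in BMH-21 and 28.8 ± 1.0 FPKM in DMSO, and Birc5, which encodes survivin, 7.40 ± 0.21 FPKM in BMH-21 and 26.5 ± 0.93 FPKM in DMSO (SD, n = 3 each).

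**Figure D5:**
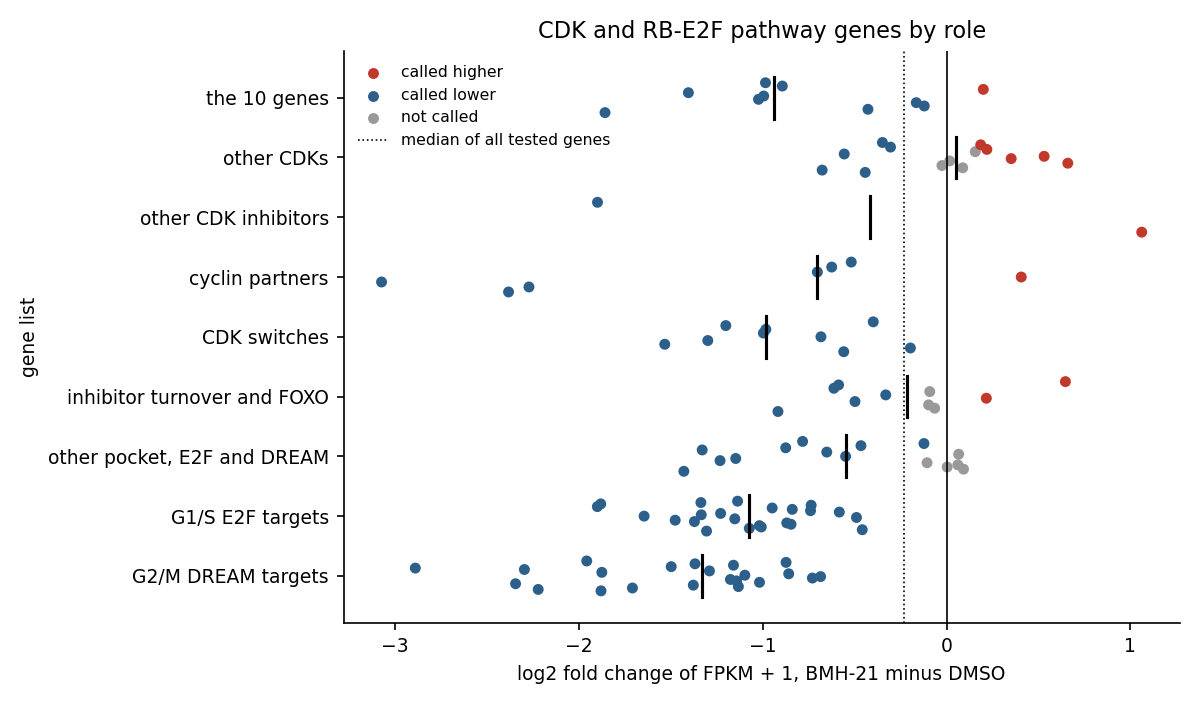
Log2 fold change of FPKM + 1, BMH-21 minus DMSO, for each tested gene of the 10 and of 8 further lists, coloured by call, with a bar at each list's median and the median of all tested genes (−0.23) dotted. Both target lists lie wholly below 0, and the other CDKs lie on both sides of it.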

How the data were processed

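The deposited table gives 1 normalised value per gene in each of 6 libraries, read as FPKM from the values, since the labels do not name the unit. The submitters' processing notes name mm10 and the tools SAMtools, HISAT2 and Trimmomatic (0.38). How fragments were counted and normalised, and on which annotation, is not given in the sources used here. Per the labels, libraries were made by oligo-dT enrichment, and DMSO replicate 2 is labelled polyadenylated RNA where the other 5 are labelled total RNA. FPKM are relative to each library, so they do not show a change in the amount of RNA in a cell.

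Groups came from the sample titles. Values were taken as log2(FPKM + 1), and genes reaching 1 FPKM in 3 or more libraries (9748, 50.7%) entered a limma-trend fit (limma 3.58.1, R 4.3.3), BMH-21 minus DMSO, with Benjamini-Hochberg adjustment over all of them at 0.05. This scale understates the change of low genes. Ratios of 2 genes were taken on log2 FPKM and tested by exact permutation (scipy 1.17.1). The fit was tested on simulated data first. It recovered 22 of 50 genes changed 1.2-fold and at least 49 of 50 changed 1.5-fold, 2-fold or 4-fold, and called 7 of 9548 unchanged genes. Few genes were changed in the simulation, equally up and down, so it cannot show how scaling bears on these data. Separate cultures are not stated for the replicates, and p-values therefore reflect the spread of these 6 libraries, which may be technical. Only 75.3% to 77.4% of the low values checked (1686 to 2057 genes with 1 transcript in each library) lay within 0.01 of whole reads, too few to recover counts, so no count model was fitted. Alternatives covered scaling, pseudocount, filter, variance trend, replicate block and leaving out each library.

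The 10 genes and the lists were chosen with earlier results of these data known. Named from each list were up to 3 called, non-overlapping genes in ascending order of p, and Cdkn1a; for the lowest and highest of the 10 by fold change, the 3 nearest profiles were named. Other genes named were chosen after their values were seen. Sequences are from RefSeq (GRCm38.p6), positions from GENCODE M21, which matched 97.4% of the table's IDs.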

Additional observations from a re-analysis of the deposited data

How the results depend on the processing

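The counts rest on scaling and filter. Genes called lower numbered 3546 with median-ratio scaling, 3498 with quantile normalization and 3180 at a mean of at least 5 FPKM (5690 as reported), and genes called higher 3643, 3349 and 3517 with median-ratio, upper-quartile and quantile scaling (1938 as reported). Of the 10 genes, those called higher were 2 with each of these 3 scalings and 0 with equal column totals. Further pathway genes called lower were 44 at a mean of at least 5 FPKM, which tests fewer genes (81 as reported), and those called higher were 20, 18 and 19 with median-ratio, upper-quartile and quantile scaling (9 as reported). The sign turned for Cdk4 with median-ratio (0.16) and upper-quartile scaling (0.11), and for Cdk6 with median-ratio (0.061) and upper-quartile scaling (0.026) and with quantile normalization (0.16). The ratio of Cdk4 to Cdk6 turned to −0.39 with quantile normalization. Cdk1 over Cdk2 was −1.43 from FPKM + 1 and −1.42 with quantile normalization (−1.73 as reported). Cdkn1b over Cdk2 was −0.60 and −0.56 (−0.72 as reported). The quantile values were also made from FPKM + 1, whereas the reported ratios were taken on FPKM, so both alternatives carry the added 1. No other cause was tested. Leaving out 1 library gave 8 to 9 of the 10 genes lower and 1 higher, 5450 to 5597 genes lower and 1816 to 1876 higher.

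Replicate numbers did not pair the libraries (correlations of same-numbered deviations −0.11, −0.09 and −0.06). With the replicate block, 5608 genes were called lower and 1894 higher, and 9 of the 10 genes lower and 1 higher; no ratio could pass, since 3 pairs allow no p under 0.25. The filter at a mean of 5 FPKM left Cdk6, Rb1 and Rbl1 untested.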
